A study of Homo sapiens with 3 samples.

Results

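The interferon response and major histocompatibility complex (MHC) class I genes were described here as a set of 47 genes named by symbol, of 18856 genes listed in at least 1 of 3 mRNA-seq libraries. All 47 were listed in at least 1 library. The set holds 6 MHC class I chains, 5 genes of peptide supply and loading, 6 transcription factors, 4 nucleic acid sensors, 23 antiviral effectors and 3 regulators that act through ubiquitin, the ubiquitin-like ISG15 or ADP-ribose. Some symbols in the files are older ones: DDX58 is the gene now called RIGI, TMEM173 is STING1 and MB21D1 is CGAS.

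The libraries were each made from 10 pg of polyA+ mRNA, diluted from bulk mRNA. HBE is a human bronchial epithelial cell line and A549 is a human lung adenocarcinoma cell line. No interferon, virus or other treatment is stated for either line. LIEA (low-input, equal-amplification) RNA-seq fragments the mRNA, ligates adapters and is read on an Ion Torrent sequencer, and it was applied to HBE and to A549. Smart-seq2, which primes full-length cDNA with oligo-dT and amplifies it before the library is made, was applied to HBE and read on an Illumina sequencer. The question of the comparison between the LIEA libraries is how the cell lines differ, and HBE Smart-seq2 gives a second library of the same line, which differs in library method, sequencer and allowed mapping errors.

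Each condition had 1 library. Differences therefore have no replicate check and no p-value, and an effect of the cell line and an effect of the single library cannot be told apart. Levels are log2 rpkM as deposited, which is reads scaled by transcript length and by the library's total of mapped reads, so that genes can be compared per length. Reads per gene were recovered from these values, with totals of 4605855 mapped reads for HBE LIEA, 4154060 for A549 LIEA and 9845150 for HBE Smart-seq2. The intervals beside a difference are exact binomial 95% intervals from the reads. They cover counting error only, because reads amplified by PCR are not independent molecules. In bulk RNA, fewer expressing cells and less RNA per cell cannot be told apart.

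The labelled lines were compared with marker genes. The 5 epithelial markers (EPCAM, CDH1, KRT8, KRT18 and KRT19) were listed in all 3 libraries, but their levels split. Against HBE LIEA, A549 LIEA differed by -2.97 log2 for EPCAM, -1.56 for CDH1, -0.46 for KRT19, 2.97 for KRT8 and 2.53 for KRT18. The 5 basal bronchial markers were all listed in both HBE libraries, with KRT5 at 9.11 log2 rpkM in LIEA and 8.67 in Smart-seq2. In A549 LIEA, KRT5 was at 0.91 and NGFR and KRT14 were not listed. Of the 5 alveolar and lung markers, SFTPC, SFTPA1 and NKX2-1 were not listed in A549 LIEA, SFTPB was at 0.39 and ABCA3, a lipid transporter, at 3.80. In HBE LIEA and HBE Smart-seq2, SFTPB was at 0.31 and 0.44, ABCA3 at 1.26 and -1.57, and NKX2-1 had 1 and 4 reads. Of the 7 immune cell markers, 3 were listed in HBE LIEA, 4 in A549 LIEA and 5 in HBE Smart-seq2. CD3E was not listed in any of them, PTPRC had 0, 2 and 3 reads in that order, and the summed level of the list was 50.1, 54.3 and 55.3 rpkM. CD14, LYZ and CD68 were listed in all 3 libraries. The part of immune cell RNA in the values below was not tested.

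Interferons are secreted proteins that bind cell surface receptors. Type I and type III interferons signal through the kinases JAK1 and TYK2 to a complex that holds STAT2 and IRF9 and binds the interferon-stimulated response element (ISRE) in the promoters of many antiviral genes. Interferon gamma acts in part through IRF1 and raises MHC class I, which displays peptides from inside the cell to CD8 T cells. Many of these genes also have a basal level in unstimulated epithelial cells.

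The promoters were read on both strands for the core letters of the ISRE, because the set is named for this response. The letters are GAAA, any 2 bases, and GAAA again. RefSeq promoters, which run from upstream to just past the gene start (GRCh38.p14), were found for 36 of the 47 genes. The motif was present in 24 of these, or 66.7%, against 3.65% of all 27305 promoters of that table. With a C required after the second GAAA, a stricter form of the same motif, the counts were 18 of 36 and 0.798% of all promoters. A match is a description of letters and not a measured binding site. The stretches below show the core in capitals with 10 bases on each side, 5′ to 3′ on the strand of the gene, for genes at least 2-fold lower in A549 LIEA than in HBE LIEA (B2M, TAP2, IFITM1, IFITM3, SAMD9), a gene that was higher (IFI6) and a pair in neither class (ISG15, OAS3). They were placed on GRCh37, the same assembly as hg19.
B2M, chr15:45003567-45003596, plus strand: ctaagaaaagGAAACTGAAAacgggaaagt
TAP2, chr6:32806555-32806584, minus strand: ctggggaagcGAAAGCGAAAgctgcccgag
IFITM1, chr11:313990-314019, plus strand: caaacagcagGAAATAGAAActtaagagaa
IFITM3, chr11:320876-320905, minus strand: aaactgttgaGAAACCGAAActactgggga
SAMD9, chr7:92747409-92747438, minus strand: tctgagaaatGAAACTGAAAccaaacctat
IFI6, chr1:27998777-27998806, minus strand: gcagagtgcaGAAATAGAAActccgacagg
ISG15, chr1:948760-948789, plus strand: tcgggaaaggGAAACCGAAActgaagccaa
OAS3, chr12:113376126-113376155, plus strand: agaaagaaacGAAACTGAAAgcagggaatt

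The motif was found in genes of every class. It was present in 5 of 7 promoters of the genes that were lower in A549 LIEA, 2 of 5 of those that were higher and 13 of 19 of those in neither class. Among the genes without it in this window were ERAP2 and DDX58, which were lower in A549 LIEA, and HLA-G, IFI35 and OAS1, which were higher. TMEM173, IFIT2, IFITM2, IRF7 and USP18 had no entry in the promoter table.

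At the criterion of 10 reads used for a quantified gene, HBE LIEA quantified 36 of the 47 genes, A549 LIEA 36 and HBE Smart-seq2 40. Another 6, 7 and 4 genes had 1 to 9 reads, and 5, 4 and 3 were not listed. IFI27, IFI44 and IFI44L, which are often used as markers of a type I interferon response, had at most 1 read in every library. A count of 0 allows up to 3 reads in a library, so these genes were not detectable at this depth rather than absent. The levels of the quantified genes ran from -1.09 to 9.63 log2 rpkM in HBE LIEA and from -0.35 to 6.64 in A549 LIEA. In HBE LIEA the highest was IFITM3, which blocks the entry of enveloped viruses, at rank 57 of 12346 quantified genes. In A549 LIEA the highest was B2M, the light chain of MHC class I, at rank 633 of 12635.

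**Figure D1:**
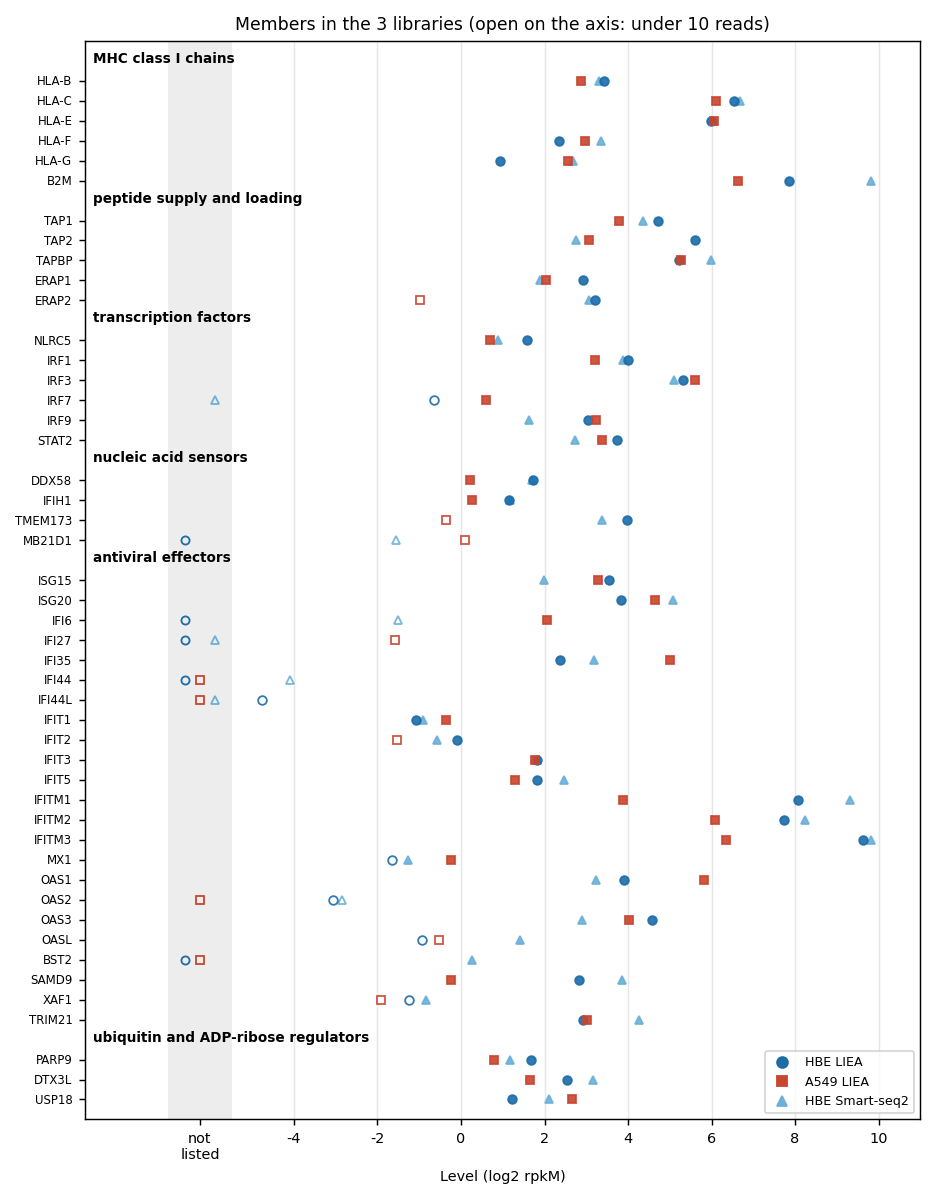
Levels of the 47 genes (log2 rpkM, x axis) by role, with circles for HBE LIEA, squares for A549 LIEA and triangles for HBE Smart-seq2. Open symbols have under 10 reads, and symbols in the grey band are not listed. The IFITM genes reach 9.63 in HBE LIEA, while no gene of the set passes 6.64 in A549 LIEA.

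Of the 47 genes, 39 had at least 10 reads in at least 1 LIEA library. Among these, 10 were at least 2-fold lower in A549 LIEA than in HBE LIEA (25.6%), where 20.9% of all 13659 genes tested were lower by this rule. Another 7 were at least 2-fold higher (17.9%), against 20.4% of all genes, and 22 were in neither class. On this scale the shares lie near the background. The median difference was -0.54 log2 over the 39 genes and -0.13 over all genes tested. Rescaled to TPM, which moved the median of all genes to -0.29, the counts were 16 lower (background 25.5%) and 7 higher (background 18.2%), so the lower share then stood above the background. The genes added were TAP1, ERAP1, NLRC5, IFIH1, PARP9 and DTX3L, all between -0.88 and -0.95 before rescaling.

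The lower genes were TMEM173, ERAP2, IFITM1, IFITM3, SAMD9, TAP2, IFITM2, DDX58, IFIT2 and B2M, in order of size. The higher genes were IFI35, IFI6, OAS1, HLA-G, USP18, MX1 and IRF7. For 13 of the 16 called genes listed in both LIEA libraries, the counting interval left out 0, and IFIT2, MX1 and IRF7 were the exceptions. On the log2(rpkM + 1) scale, which understates low genes, these 3 and DDX58 (-0.99) were no longer called, leaving 8 lower (background 15.4%) and 5 higher (background 15.1%). ERAP2, TMEM173 and IFIT2 passed the read criterion only through HBE, and IFI6, IRF7 and MX1 only through A549. For these the criterion itself favoured a difference in that direction, without fixing its size. Against both HBE libraries, a comparison chosen after the data were seen, 8 genes were lower in A549 LIEA (background 12.8%) and 5 were higher (background 16.8%). TAP2 and IFIT2 dropped out of the lower genes, and HLA-G and USP18 out of the higher.

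**Figure D2:**
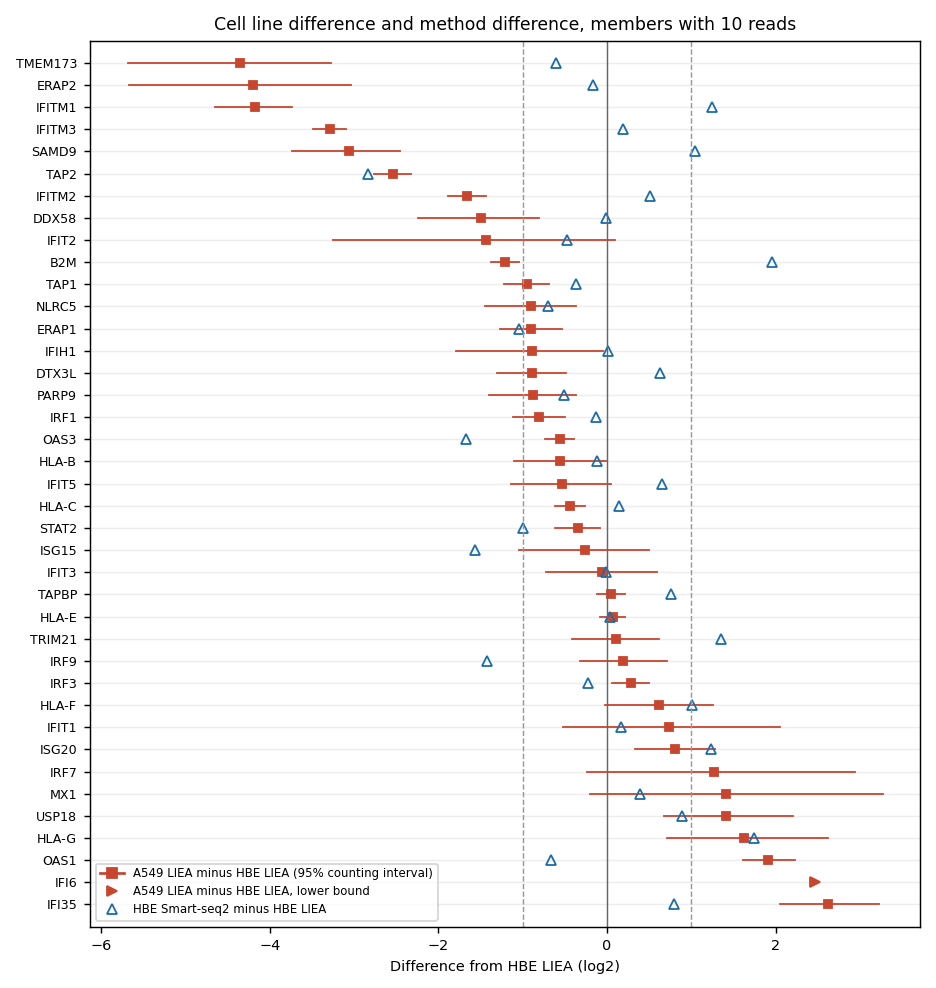
Difference from HBE LIEA (log2, x axis) for the 39 genes with at least 10 reads in a LIEA library. Squares with bars are A549 LIEA with its 95% counting interval, the filled triangle is a lower bound from 3 reads, open triangles are HBE Smart-seq2 and dashed lines mark 2-fold. TMEM173 (-4.35) and ERAP2 (-4.20) are the lowest, with HBE Smart-seq2 at -0.61 and -0.16.

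The MHC class I chains lie on chromosome 6 in GRCh37, HLA-B, HLA-C, HLA-E, HLA-F and HLA-G between 29690552 and 31334844, and B2M lies on chromosome 15 from 45003556 to 45011049. HLA-B and HLA-C present peptides to CD8 T cells, HLA-E signals to natural killer cells, and HLA-F and HLA-G have more restricted roles. B2M was at 7.86 log2 rpkM in HBE LIEA, 6.64 in A549 LIEA and 9.81 in HBE Smart-seq2. It was lowest in A549, by 2.32-fold against HBE LIEA (log2 -1.21, interval -1.38 to -1.05), while the methods differed by 1.95 log2 within HBE. Against HBE Smart-seq2, A549 LIEA differed by -3.17 log2, so the size of the difference depended on the HBE library.

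HLA-C was the highest heavy chain in each library, at 6.54, 6.11 and 6.69 log2 rpkM in HBE LIEA, A549 LIEA and HBE Smart-seq2. Its difference between the cell lines was -0.44 (interval -0.61 to -0.27). HLA-E followed at 5.99, 6.06 and 6.02, within 0.07 log2 in every library. HLA-B, in the same order of libraries, was at 3.43, 2.88 and 3.31, more than 3 log2 units below HLA-C in each. HLA-F was at 2.35, 2.96 and 3.36 and HLA-G, which is best known from the placenta, at 0.95, 2.57 and 2.69.

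HLA-G was thus 3.09-fold higher in A549 LIEA than in HBE LIEA (interval 0.71 to 2.62 log2), from 39 reads against 14. HBE Smart-seq2 stood 0.11 log2 above A549, so the direction turned with the HBE library used. Some reads of these genes may be hard to assign. Of the 42-base windows of the longest HLA-C transcript, 62.8% matched another of the 5 heavy chains with at most 3 mismatches. The shares for HLA-G, HLA-B, HLA-F and HLA-E were 34.9, 30.8, 26.3 and 17.8%. Identical windows made up 6.46% for HLA-C, and 6.42, 2.065, 2.33 and 4.67% for the others in that order. Windows longer than 42 bases were not compared. The mapping allowed 3 errors in an Ion Torrent read and used reference alleles. How many reads were lost or moved between these polymorphic genes was not tested, so the values of the single heavy chains are uncertain.

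Peptides reach MHC class I through the transporter of TAP1 and TAP2, are held in place by TAPBP (tapasin) and are trimmed by the aminopeptidases ERAP1 and ERAP2. ERAP2, on chromosome 5 from 96211690 to 96255407, was at 3.22 log2 rpkM in HBE LIEA, -0.98 in A549 LIEA and 3.06 in HBE Smart-seq2. The HBE libraries lay within 0.16 log2 of each other and A549 was 18.3-fold below HBE LIEA (log2 -4.20, interval -5.67 to -3.03), with 6 reads against 122. ERAP1 was at 2.93, 2.03 and 1.89, so the A549 level lay beside that of HBE Smart-seq2.

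TAP2 was at 5.596 log2 rpkM in HBE LIEA, 3.06 in A549 LIEA and 2.76 in HBE Smart-seq2. A549 was 5.82-fold below HBE LIEA (log2 -2.54, interval -2.76 to -2.32) and 0.30 log2 above HBE Smart-seq2. The high TAP2 level was present in HBE LIEA alone, from 1277 reads. TAP1 was at 4.73, 3.78 and 4.36, a difference of -0.95 between the cell lines (interval -1.22 to -0.68), just short of the 2-fold rule. TAPBP was at 5.22, 5.27 and 5.98, with A549 0.05 log2 above HBE LIEA. Of the 5 genes, 2 were lower, 0 higher and 3 in neither class, where 20.9% of all genes tested were lower and 20.4% higher.

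NLRC5 is the transactivator of the MHC class I genes, and IRF1, IRF3, IRF7, IRF9 and STAT2 carry interferon or sensor signals to the nucleus. Of these 6 genes, 0 were lower in A549 LIEA and 1 was higher, where 20.9% of all genes tested were lower and 20.4% higher. IRF3, present without stimulation, was the highest, at 5.32 log2 rpkM in HBE LIEA, 5.603 in A549 LIEA and 5.10 in HBE Smart-seq2. IRF1 was at 4.01, 3.20 and 3.87 and NLRC5 at 1.59, 0.69 and 0.88, differences between the cell lines of -0.80 and -0.90.

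STAT2 was at 3.73, 3.38 and 2.73 and IRF9, its partner on the ISRE, at 3.05, 3.24 and 1.63, so both were lowest in Smart-seq2. IRF7, which amplifies the type I response, was 2.40-fold higher in A549 LIEA, but on 13 reads against 6, with an interval of -0.23 to 2.95 log2 that held 0. It was not listed in HBE Smart-seq2.

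Of the 4 sensors, 2 were lower in A549 LIEA, 1 was in neither class and 1 had too few reads. Only 3 were thus tested, and 20.9% of all genes tested were lower by this rule. TMEM173 (STING1) relays the signal of cytosolic DNA and lies on chromosome 5 from 138855118 to 138862520. It was at 3.98 log2 rpkM in HBE LIEA, -0.37 in A549 LIEA and 3.37 in HBE Smart-seq2. A549 was 20.4-fold below HBE LIEA (log2 -4.35, interval -5.69 to -3.27), with 7 reads against 158, and the HBE libraries differed by 0.61 log2. DDX58 (RIG-I), a sensor of viral RNA, was at 1.72, 0.22 and 1.71, which put A549 2.82-fold below HBE LIEA (log2 -1.50, interval -2.24 to -0.80), and the HBE libraries within 0.01 log2.

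IFIH1 (MDA5), the sensor of long double-stranded RNA, had a like order, at 1.16, 0.27 and 1.17, with a difference of -0.89 between the cell lines (interval -1.79 to -0.04). MB21D1 (cGAS), which makes the messenger that activates STING1, had 0, 4 and 3 reads in HBE LIEA, A549 LIEA and HBE Smart-seq2. At this depth no difference in MB21D1 could be given. The summed level of the 4 sensors was 21.3 rpkM in HBE LIEA, 4.21 in A549 LIEA and 16.2 in HBE Smart-seq2. Without TMEM173, a sum added after the values were seen, it was 5.52, 3.44 and 5.86 rpkM.

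The IFITM genes encode small membrane proteins that restrict virus entry and lie together on chromosome 11, IFITM2 from 303655 to 309397, IFITM1 from 310041 to 315272 and IFITM3 from 319676 to 329475. IFITM1 was at 8.06 log2 rpkM in HBE LIEA, 3.88 in A549 LIEA and 9.31 in HBE Smart-seq2. A549 was 18.04-fold below HBE LIEA (log2 -4.17, interval -4.64 to -3.74), and the HBE libraries differed by 1.25 log2 the other way. IFITM3 was at 9.63, 6.35 and 9.82, which put A549 9.76-fold below HBE LIEA (log2 -3.29, interval -3.49 to -3.09) and the HBE libraries within 0.19 log2. IFITM2 was at 7.74, 6.08 and 8.24, a 3.16-fold difference (log2 -1.66, interval -1.89 to -1.43).

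All 3 were lower in A549 than in both HBE libraries, and their order by level differed. In HBE, IFITM3 was above IFITM1 and IFITM1 above IFITM2, while in A549 IFITM1 was the lowest of the 3. Their summed level was 1275 rpkM in HBE LIEA, 164 in A549 LIEA and 1842 in HBE Smart-seq2. They made up 63.2% of the summed rpkM of the 47 genes in HBE LIEA, 22.03% in A549 LIEA and 56.8% in HBE Smart-seq2. Without them the sum of the other 44 genes was 744 rpkM in HBE LIEA and 580 in A549 LIEA, a ratio of 1.28, against 2.72 with them. The transcripts share sequence: 64.9% of the 42-base windows of IFITM3 matched another IFITM gene with at most 3 mismatches. The shares were 38.7% for IFITM2 and 19.4% for IFITM1. Identical windows made up 21.6% for IFITM3, 6.94% for IFITM2 and 14.2% for IFITM1. The split among the genes is therefore less certain than their sum.

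SAMD9, an antiviral factor that restricts poxviruses, was at 2.81 log2 rpkM in HBE LIEA, -0.25 in A549 LIEA and 3.86 in HBE Smart-seq2. A549 was 8.34-fold below HBE LIEA (log2 -3.06, interval -3.73 to -2.45) and lower than both HBE libraries. IFIT2 was at -0.10, -1.54 and -0.58, on 15, 5 and 23 reads, with an interval for the cell lines of -3.25 to 0.10. The other IFIT genes differed less. IFIT3 was at 1.83, 1.77 and 1.81, IFIT5 at 1.83, 1.29 and 2.48 and IFIT1 at -1.09, -0.35 and -0.92. At most 2.08% of the 42-base windows of an IFIT gene matched another of the 4 within 3 mismatches.

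The enzymes OAS1, OAS2 and OAS3 make the messenger that activates RNase L, and their genes lie on chromosome 12, as does OASL. OAS1 was at 3.91 log2 rpkM in HBE LIEA, 5.82 in A549 LIEA and 3.24 in HBE Smart-seq2. It was highest in A549, 3.77-fold above HBE LIEA (log2 1.91, interval 1.61 to 2.23). OAS3 was at 4.57, 4.01 and 2.90, so A549 lay between the HBE libraries. OAS2 had at most 5 reads in each library, and OASL had 5 and 6 reads in the LIEA libraries and 55 in HBE Smart-seq2. No 42-base window of an OAS gene matched another within 3 mismatches.

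IFI35, a partner of NMI in the response, was at 2.38 log2 rpkM in HBE LIEA, 4.999 in A549 LIEA and 3.17 in HBE Smart-seq2. A549 was 6.14-fold above HBE LIEA (log2 2.62, interval 2.05 to 3.23) and above both HBE libraries. IFI6, a mitochondrial and endoplasmic reticulum protein, had 15 reads in A549 LIEA, none in HBE LIEA and 3 in HBE Smart-seq2. Against the 3-read floor of HBE LIEA it was 5.54-fold higher in A549 LIEA, a bound that leaves out the counting error of the A549 reads. MX1, a GTPase that blocks influenza virus, was at -1.66, -0.25 and -1.27 on 5, 12 and 14 reads, and its interval of -0.20 to 3.27 held 0.

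ISG15, the ubiquitin-like modifier, was at 3.55 log2 rpkM in HBE LIEA, 3.29 in A549 LIEA and 1.99 in HBE Smart-seq2. The cell lines differed by -0.27 (interval -1.04 to 0.49) and the methods by -1.57. ISG20, an exonuclease, was at 3.84, 4.64 and 5.07, and TRIM21, the cytosolic antibody receptor, at 2.91, 3.02 and 4.27. BST2 (tetherin) was not listed in either LIEA library and had 12 reads in HBE Smart-seq2. XAF1 had 7, 4 and 20 reads.

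PARP9 and DTX3L form a complex that modifies histones, and their genes lie side by side on chromosome 3, PARP9 from 122246771 to 122283424 on the minus strand and DTX3L from 122283185 to 122294050 on the plus strand. They were lower in A549 LIEA by nearly the same amount, PARP9 by -0.88 (interval -1.40 to -0.37) and DTX3L by -0.89 (interval -1.31 to -0.48). PARP9 was at 1.67, 0.79 and 1.16 log2 rpkM in HBE LIEA, A549 LIEA and HBE Smart-seq2, and DTX3L at 2.54, 1.65 and 3.17. Neither reached 2-fold. The genes overlap at their starts, and whether counting used strand is not given in the sources used here. USP18, which removes ISG15 from proteins and restrains the type I receptor, was at 1.23, 2.65 and 2.12. It was 2.67-fold higher in A549 LIEA than in HBE LIEA (interval 0.68 to 2.21), and 0.53 log2 above HBE Smart-seq2.

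As a method check, HBE Smart-seq2 was set against HBE LIEA. Of the 40 genes of the set with at least 10 reads in at least 1 of these, 6 were at least 2-fold lower in Smart-seq2 (15%, background 28.5%) and 8 were higher (20%, background 22.2%). The lower genes were TAP2, OAS3, ISG15, IRF9, ERAP1 and STAT2, by 1.001 to 2.84 log2. The higher were OASL, B2M, HLA-G, TRIM21, IFITM1, ISG20, SAMD9 and HLA-F, by 1.01 to 2.36 log2. This comparison and that of the cell lines share the HBE LIEA library. With HBE Smart-seq2 in place of HBE LIEA as the reference for A549 LIEA, 13 of 42 genes were lower (background 29.4%) and 8 were higher (background 32.8%).

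The other genes of the pathway were taken as 10 lists with 106 entries, of which 79 had at least 10 reads in a LIEA library. Of these, 23 were at least 2-fold lower in A549 LIEA (29.1%, background 20.9%) and 8 were higher (10.1%, background 20.4%), with a median of -0.39. In the list of 44 further interferon-stimulated genes, 36 were tested, and the median was -0.54. Of these, 14 were lower (38.9%, background 20.9%) and 4 were higher (11.1%, background 20.4%). The 5 with the largest differences, picked by that size, were GBP1, TRIM22, PARP10, IFI16 and HERC5. GBP1, TRIM22 and PARP10 passed the read criterion only through HBE LIEA and HERC5 only through A549 LIEA. For these the criterion itself favoured a difference in that direction. GBP1, a GTPase, had 43 reads in HBE LIEA, 1 in A549 LIEA and 96 in HBE Smart-seq2 (log2 -5.28, interval -10.6 to -2.72). TRIM22, an antiviral ubiquitin ligase, was at 3.91, -1.36 and 3.90 log2 rpkM in the same order (log2 difference -5.27, interval -6.91 to -4.03).

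PARP10 was at 3.65, -1.06 and 2.13 log2 rpkM in HBE LIEA, A549 LIEA and HBE Smart-seq2, and IFI16, a nuclear DNA sensor, at 4.64, 0.74 and 4.08. Both were lower in A549 than in either HBE library. HERC5, the ligase that attaches ISG15, had 22 reads in A549 LIEA and was not listed in either HBE library. RTP4 was not listed in any library.

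The immunoproteasome subunits cut peptides for MHC class I. PSMB8 was at 4.39 log2 rpkM in HBE LIEA, 3.21 in A549 LIEA and 2.83 in HBE Smart-seq2, and PSMB9 at 3.96, 2.92 and 5.14. Both were just over 2-fold lower in A549 LIEA than in HBE LIEA (-1.18 and -1.04), while PSMB8 in HBE Smart-seq2 was below A549. PSMB10 (0.11), PSME1 (-0.68) and PSME2 (-0.35) did not reach 2-fold. The constitutive counterparts PSMB5, PSMB6 and PSMB7 did not either, nor did the chaperones CALR, CANX, PDIA3 and HSPA5.

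The receptors and kinases were listed in every library. IL10RB, the shared chain of the type III interferon receptor, was at 1.63, 4.26 and 1.64 log2 rpkM in HBE LIEA, A549 LIEA and HBE Smart-seq2, so A549 was 6.18-fold higher than HBE LIEA (interval 2.04 to 3.26 log2). JAK1 was at 4.43, 5.66 and 4.34, which was 1.23 log2 higher in A549 LIEA than in HBE LIEA. The receptor chain IFNGR1 was lower, at 5.06, 3.99 and 5.93. Of the 4 other STAT and IRF factors tested, IRF5 was 1.25 log2 lower in A549 LIEA than in HBE LIEA, and STAT3, STAT6 and IRF2 did not reach 2-fold.

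Among the sensor adaptors and kinases, TLR3 (-1.80), TRIM25 (-1.21) and IKBKE (-1.03) were lower in A549 LIEA than in HBE LIEA. MAVS (0.94) and TICAM1 (-0.53) did not reach 2-fold. Against HBE Smart-seq2, A549 LIEA differed by -1.70 log2 for TLR3, -0.16 for TRIM25 and 0.77 for IKBKE. None of the 6 negative regulators tested reached 2-fold, where 20.9% of all genes tested were lower and 20.4% higher. SOCS1, the other of that list, had 1 read in HBE LIEA. The interferon genes themselves were nearly silent in these libraries. IFNA1, IFNB1, IFNG, IFNL1, IFNL2 and IFNL3 were not listed in any, IFNE had 4 reads in A549 LIEA and IFNK 1 in HBE LIEA.

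The MHC class II list was split. CD74, the invariant chain, had 679 reads in HBE LIEA, 1 in A549 LIEA and 441 in HBE Smart-seq2 (log2 -9.26, interval -14.6 to -6.78, A549 LIEA against HBE LIEA). HLA-DMB had 420 reads in A549 LIEA, none in HBE LIEA and 1 in HBE Smart-seq2. Its level in A549 LIEA was 155-fold above the floor of HBE LIEA, a bound that leaves out the counting error of the A549 reads. HLA-DMA was at 1.22, 3.99 and 1.29 log2 rpkM. HLA-DQB1 had 41, 0 and 9 reads. CD74 and HLA-DQB1 passed the read criterion only through HBE LIEA, and HLA-DMB only through A549 LIEA, so the criterion favoured a difference in that direction. HLA-DRA, HLA-DRB1, HLA-DPB1 and HLA-DQA1 were not listed in any library, and HLA-DPA1 had 1 read in HBE Smart-seq2.

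**Figure D3:**
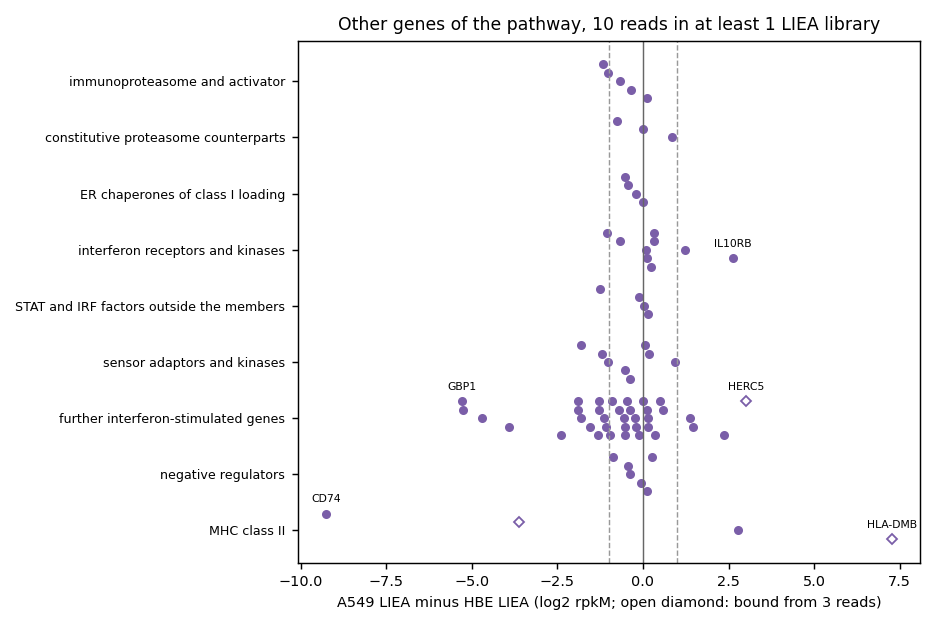
Difference of A549 LIEA from HBE LIEA (log2 rpkM, x axis) for genes of 9 other lists with at least 10 reads in a LIEA library. Each circle is a gene, open diamonds are bounds from 3 reads and dashed lines mark 2-fold. CD74 (-9.26) lies farthest below 0 and HLA-DMB (7.28, a bound) farthest above.

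With at least 10 reads in both LIEA libraries, which leaves out genes that pass through the higher library alone, 33 of the 47 genes remained. Of these, 7 were lower in A549 LIEA (background 17.3%) and 4 were higher (background 13.5%). Their median was -0.54, against -0.16 over 11322 genes. The genes in the low tail were IFITM1, IFITM3, SAMD9 and TAP2, all below -2 log2. The 24 reads of SAMD9 in A549 LIEA rest on a factor of 3 chosen from annotated lengths. With its smallest whole reads SAMD9 would fall under 10 reads there and leave this set.

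**Figure D4:**
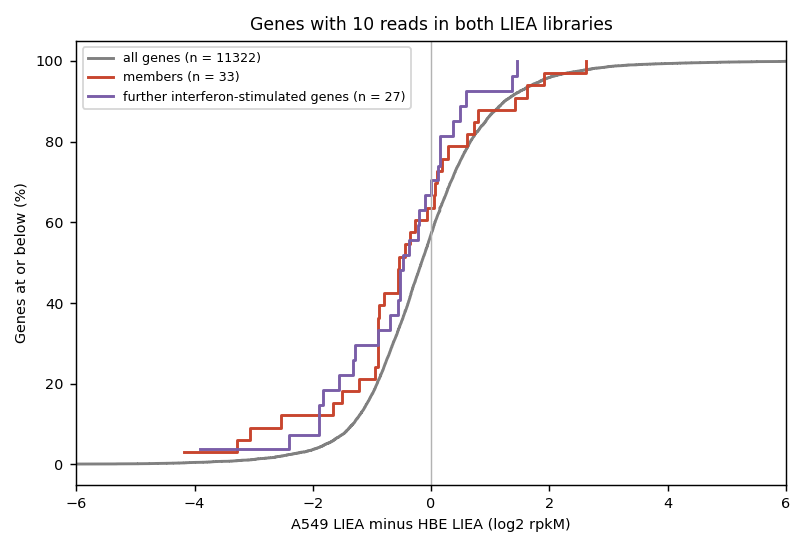
Cumulative share of genes (%, y axis) by the difference of A549 LIEA from HBE LIEA (log2 rpkM, x axis), for genes with at least 10 reads in both. Lines show all 11322 genes, the 33 genes of the set and 27 further interferon-stimulated genes. The median is -0.54 for the set and -0.16 for all genes.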

How the data were processed

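mRNA-seq was analysed for 3 libraries (HBE LIEA, A549 LIEA, HBE Smart-seq2), grouped by the labels, with 1 library each. Alignment by the authors was to RefSeq-RNA with FANSe2 (up to 3 errors per read for Ion Torrent, 2 for Illumina). They merged splice variants and deposited log2 rpkM per gene, with no pseudocount and no row for a gene without reads. The submitters' processing notes name hg19. Rows whose gene name had become a repeated date (4 per library) and 1589 empty rows of the Smart-seq2 file were left out.

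Since rpkM is reads over length and total, the totals were the largest whole number at which over 70% of 300 genes had whole lengths, and reads per gene followed for all 18856 genes, up to a whole factor from 1 to 12 chosen by annotated lengths (GENCODE release 44 on GRCh37, 94.05% of genes matched). The recovered reads sum to between 100.6 and 100.9% of the totals, so some factors are too high or some reads count for more than 1 gene. In data simulated from the recovered reads and lengths, all 3 totals were recovered. Reads were exact in all 3 libraries for 96.5% of 18353 genes. The simulated lengths held the chosen factors, so this cannot show whether those factors are right in the real data. The weights for the factor were adjusted after the recovered reads were seen. A wrong factor changes reads, intervals, bounds and which genes pass the read minimum, not levels or differences between listed values. Among the members, HLA-B, TAP1 and SAMD9 had a factor of 3 and IFITM3 of 2. With the smallest whole reads the counts of called members were the same under the rule of 10 reads in at least 1 library.

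A gene was tested with at least 10 reads in at least 1 of 2 libraries and called at 2-fold. A gene without reads was set to a floor of 3 reads, as a bound. Alternatives were other scalings, read minimums, folds, a pseudocount of 1 and Smart-seq2 as the HBE reference. The members and lists were chosen with earlier results of these data known. Genes named are all members, and up to 5 per other list by size of difference with those listed nowhere. Some genes of the other lists are not reported here and were left out of their counts. Protein identity between family members was not analysed here; windows of 42 bases, the length Ion Torrent reads had to exceed, of the longest CCDS transcripts were compared instead, a choice made after the data were seen. Versions were numba 0.67.0, matplotlib 3.10.9, pandas 2.3.3, scipy 1.17.1 and numpy 2.4.6 on Python 3.11.15.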

Additional observations from a re-analysis of the deposited data

How the results depend on the processing

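No paired analysis was possible because no condition has a second library, and leaving out a replicate was not possible either. The 10 genes lower in A549 LIEA than in HBE LIEA became 16 in TPM (25.5% of all genes), 6 at 4-fold and 17 at 1.5-fold. The 7 higher became 4 with 20 reads in at least 1 library, 4 with 10 reads in both (background 13.5%) and 2 at 4-fold. With differences centred on the median of all genes, the same 10 and 7 genes were called. In the method check, the 6 lower became 1 at 4-fold, and the 8 higher became 1 at 4-fold and 14 at 1.5-fold. In the pathway lists, the 23 lower became 15 of 67 tested with 10 reads in both libraries (background 17.3%) and 7 at 4-fold. The 8 higher became 15 of 81 tested with Smart-seq2 as the HBE reference, where 32.8% of all genes were higher. They became 5 with 10 reads in both libraries (background 13.5%) and 5 at 4-fold. Fewer genes are tested with a higher read minimum, and a larger fold leaves fewer calls. The shares of all genes at other folds and at 20 reads are not given here, so those counts stand without a background. With Smart-seq2 as the reference, HLA-G turned to -0.11 log2 and TAP2 to 0.30. The cause was not tested. Of 64 values of the 16 called genes with a counting interval, under other scalings, a pseudocount or that reference, 51 stayed within it, 11 moved outside it and these 2 reversed. Genes under 10 reads, such as MB21D1, IFI27 and OAS2, were too shallow to compare.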
